A study of Mus musculus with 6 samples.

Results

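The peaks described here are those called in the control libraries of a ChIRP-seq experiment, a no-probe control and an RNase control, on chromosomes 1 to 19 and the mitochondrial genome. They number 257 of the 39762 peaks in the 6 libraries of the series, with 120 from the no-probe control and 137 from the RNase control. In ChIRP-seq, biotinylated oligonucleotides tiled along an RNA pull it down from crosslinked chromatin, and the DNA recovered with it is sequenced. The RNA was Bloodlinc (alncRNA-EC7), a long noncoding RNA that comes from a super-enhancer. All groups used here, both controls and the input, were MEL cells (mouse erythroleukaemia), a cell line induced towards red cells with dimethyl sulfoxide (DMSO), and the labels give 2% DMSO and day 5 for each. The input's peaks are named MELd0, however, which leaves its day in doubt.

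The controls of a ChIRP experiment ask what is recovered without the captured RNA. In a no-probe control the lysate meets the beads without oligonucleotides, so DNA in it was recovered without capture by probes. In an RNase control the RNA is digested, so that DNA held by the RNA should no longer be pulled down, while DNA held in another way can be. Whether probes were added to the RNase control is not stated in the labels. The lists hold positions and scores, which offer no check of the RNase digestion. Places where short reads pile up in many libraries are known from the mouse genome. Mouse chromosomes have their centromere near the end at which numbering begins, and the assembled sequence there borders satellite repeats. The mitochondrial genome is a small circle present in many copies per cell. Its reference sequence opens with a transfer RNA gene and the ribosomal RNA genes and closes with the control region, in which replication and heavy-strand transcription begin.

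Positions are in the mouse build mm9. Each condition had 1 library, so no difference between conditions was tested. Every interval printed with a share below is an exact (Clopper-Pearson) 95% interval that covers only the counting of peaks. Peaks of 2 lists were called shared if at least 1 bp overlapped. Each peak has a whole-number score from the authors, on a scale that no source used here states. Scores are used to order peaks within a list, and the values of both lists stand side by side without a statement on which library had more signal. Read depth is unknown. The input list held 144 peaks on chromosomes 1 to 19 and none on the mitochondrial genome. It lacks 329 of its 599 peak numbers over all chromosomes, whereas the control lists lack none, so a position without an input peak is not shown to be without input signal.

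Most peaks were seen in 1 control only. The lists formed 31 overlapping pairs, each of 1 no-probe and 1 RNase peak, which is 25.8% of the no-probe peaks (18.3% to 34.6%) and 22.6% of the RNase peaks (15.9% to 30.6%). An input peak was met by 22 no-probe peaks, or 18.3% (11.9% to 26.4%), and by 16 RNase peaks, or 11.7% (6.82% to 18.3%). Of the 31 pairs, 27 were nuclear and 4 mitochondrial. The same 14 nuclear pairs met the input with both of their peaks, and the other 13 met it with neither. Among nuclear peaks of a single list, 8 of 89 no-probe peaks and 2 of 94 RNase peaks met the input. Sharing and input overlap thus went together in both lists. Of the no-probe nuclear peaks with an input peak 63.6% (40.7% to 82.8%) also met an RNase peak, against 13.8% (7.57% to 22.5%) of those without. For RNase nuclear peaks the values were 87.5% (61.7% to 98.4%) and 12.4% (6.76% to 20.2%). Of the peaks that met the input, 15 of 22 no-probe and 10 of 16 RNase peaks lay together at the start of chromosome 9. Neighbouring peaks are not independent, so these intervals are too narrow, and no difference between the shares was tested.

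**Figure D1:**
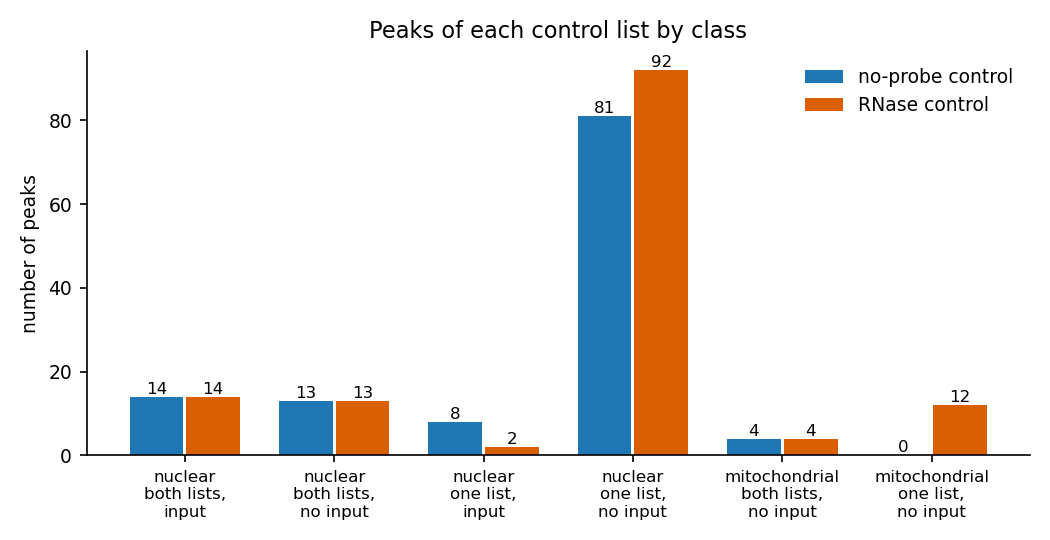
Number of peaks (vertical axis) in the no-probe list (blue) and the RNase list (orange), by genome, by presence in both lists or one, and by overlap with an input peak (horizontal axis). The tallest bars are nuclear peaks of one list without an input peak, 81 among no-probe peaks and 92 among RNase peaks, and the 12 mitochondrial peaks of a single list are all from the RNase control.

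The peaks were short, and many had exactly the same width. The median width was 135 bp in both lists, with a range of 134 to 1207 bp for no-probe peaks and 128 to 1427 bp for RNase peaks. The smallest width was also the most frequent: 59 of 120 no-probe peaks (49.2%) were exactly 134 bp wide and 56 of 137 RNase peaks (40.9%) exactly 128 bp. Of these shortest peaks, 2 in each list had a partner in the other list. One pair at chr6:132413767-132413900 (no-probe) and 132413769 to 132413896 (RNase) joined shortest peaks of both lists, with scores of 70 and 50. Scores repeated as well, with 37, 52 and 70 given to 45 no-probe peaks and 35, 50 and 68 to 47 RNase peaks. In all, 55 distinct scores occurred among the no-probe peaks and 66 among the RNase peaks.

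Shared nuclear peaks had larger median widths and scores than unshared ones in both lists. Nuclear no-probe peaks with an RNase partner had a median width of 238 bp and a median score of 128, and those without had 134 bp and 51. Nuclear RNase peaks with a no-probe partner had a median width of 210 bp and a median score of 139, and those without had 128 bp and 49. Both lists had 5 nuclear peaks wider than 300 bp, and all 5 were shared in each. When the nuclear no-probe peaks were cut by score into 4 bins of 29, the highest bin held 21 shared peaks (72.4%, 52.8% to 87.3%) and the lower bins 2, 3 and 1. Of the nuclear RNase peaks, the highest bin of 31 held 18 shared peaks (58.1%, 39.1% to 75.5%), and the lower bins of 30 held 4, 4 and 1. Of the 10 highest nuclear no-probe peaks all were shared, and of the 10 highest nuclear RNase peaks 9 were. Across nuclear peaks of a list, width and score had a Spearman correlation of 0.57 (no-probe, 116 peaks) and 0.47 (RNase, 121 peaks). These are descriptions of the peaks of 1 library each.

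**Figure D2:**
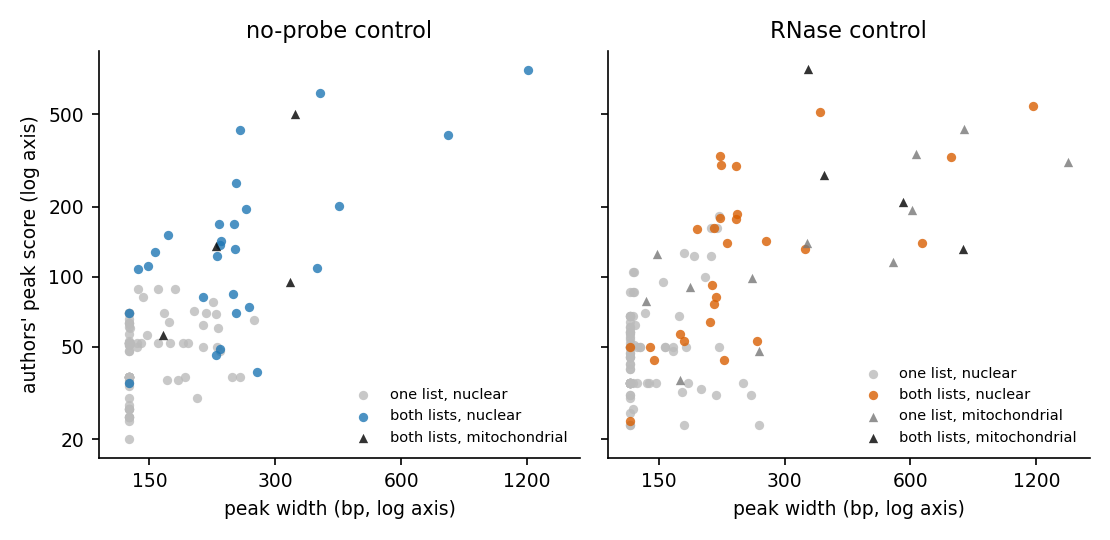
Authors' peak score (vertical, log axis) against peak width in bp (horizontal, log axis) for each peak of the no-probe list (left) and the RNase list (right), with nuclear peaks as circles and mitochondrial peaks as triangles. Peaks of one list (light grey circles) crowd at the smallest width, 134 bp and 128 bp, and the widest nuclear peaks, of 1207 bp and 1176 bp, are a shared pair.

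The positions that recurred most strongly were a few places on chromosomes 2 and 9. The pair with the highest standing in both lists, taken as the lower of its score percentiles, lay on chromosome 2, at 98506326 to 98507532 with a score of 771 in the no-probe list and at 98506350 to 98507525 with 544 in the RNase list. It was the highest no-probe peak and the second highest RNase peak. The next pair, on chromosome 9, had a no-probe peak at 35112778 to 35113161 (score 617) and an RNase peak at 35112789 to 35113152 (score 511). An input peak of 278 bp with a score of 733 lay within both. These peaks agreed in their edges to within 24 bp, so both libraries outlined the same stretch.

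Chromosome 2 had a compact group of 4 no-probe and 4 RNase peaks within 5.15 kb, from 98502383 to 98507532, and every one of them was paired. From left to right the no-probe scores were 405, 201, 169 and 771, and the RNase scores were 326, 131, 92 and 544. The order of the 4 peaks by score was the same in both lists. The no-probe peaks of the group covered 2628 bp and the RNase peaks 2460 bp, with RNase peaks lying inside their no-probe partners in all 4 pairs. None of the 8 peaks met an input peak, although 1 input peak lay elsewhere in the same 1 Mb window. This group held the widest nuclear peaks of either list.

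Other high pairs away from chromosome starts were single. On chromosome 9 the peaks at 24346418 to 24346664 (no-probe, score 426) and 24346427 to 24346655 (RNase, score 299) met an input peak with a score of 863. On chromosome 1 the peaks at 12634847 to 12635012 (no-probe, score 151) and 12634799 to 12635009 (RNase, score 303) met none. Nor did those on chromosome 5 at 114623114 to 114623254 (no-probe, score 108) and 114623032 to 114623241 (RNase, score 332), the sixth highest RNase peak, a pair named after its values were seen. Further pairs with an input peak lay on chromosome 4 at 70039095 to 70039333 (no-probe, 169) and 70039099 to 70039317 (RNase, 139), and on chromosome 6 at 103599071 to 103599287 (no-probe, 46) and 103599105 to 103599276 (RNase, 53). Their input scores were 868 and 839. At the pair on chromosome 6 the input score was high, but the control peaks did not stand high in their lists. They ranked 81 of 120 in the no-probe list and 65 of 137 in the RNase list.

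The start of chromosome 9 held the largest group of nuclear peaks. Over all 6 libraries, none of the 38274 peaks on chromosomes 1 to 19 began in the first 3 Mb, and the lowest start was position 3000030 on chromosome 9. A peak counted as near a chromosome start when it began in the 1 Mb that follows. Of the no-probe peaks 22 did so (18.3%, 11.9% to 26.4%), of the RNase peaks 14 (10.2%, 5.70% to 16.6%) and of the input peaks 45 (31.3%, 23.8% to 39.5%). In both controls they were confined to chromosomes 9, 11 and 12, while the input had them on 9 chromosomes. Chromosome 9 held 19 of the 22 no-probe peaks and 12 of the 14 RNase peaks.

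Of these, all 19 no-probe peaks and 11 RNase peaks lay in the first 40 kb, a limit chosen after the positions were seen, between 3000049 and 3036665. The RNase peak outside it was at 3352642 to 3352850 with a score of 50. The peaks in the 40 kb had median widths of 218 bp (no-probe) and 203 bp (RNase), and 1 peak of each list had the smallest width of its list. They formed 10 pairs, of which 9 met an input peak, while 9 no-probe peaks and 1 RNase peak had no partner. The highest no-probe score was 252, at 3025416 to 3025657, where the RNase peak at 3025412 to 3025640 had 178. The highest RNase score was 179, at 3002256 to 3002465, where the no-probe peak at 3002241 to 3002481 had 132. Paired no-probe peaks in the 40 kb had a median score of 116 (49 to 252), and unpaired ones had 60 (50 to 78). The RNase list thus lacked counterparts mostly at the lower no-probe scores of this stretch, although the ranges overlapped. Over the whole no-probe list the median score was 52. The input had 28 peaks in the 40 kb, of which 9 were met by both controls, 6 by the no-probe list alone, 2 by the RNase list alone and 11 by neither.

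**Figure D3:**
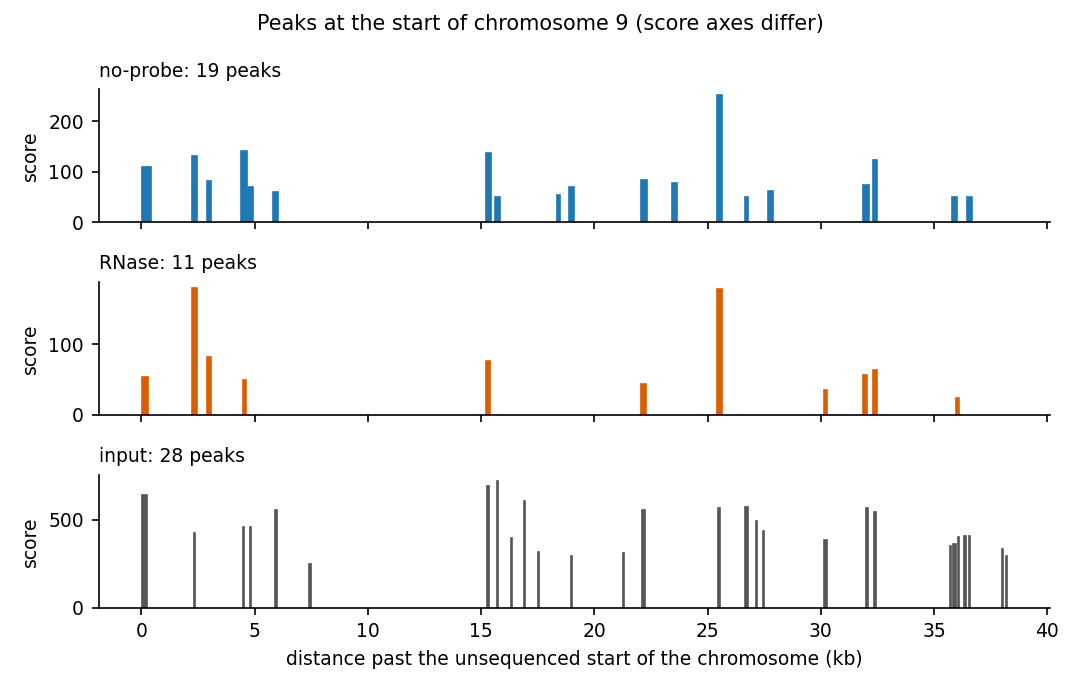
Authors' peak score (vertical, a separate axis for each list) of every peak in the first 40 kb of called sequence on chromosome 9, by distance in kb (horizontal), for the no-probe control (top), the RNase control (middle) and the input (bottom). Each bar spans a peak, with a thin outline that widens the narrowest ones. The 19 no-probe and 11 RNase peaks share 10 positions, and no control peak falls between the groups near 6 kb and 15 kb.

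Chromosome 12 had a single recurrent position near its start, with a no-probe peak at 3109912 to 3110167 (score 196), an RNase peak at 3109925 to 3110155 (score 186) and an input peak of 87 bp with a score of 868 inside both. On chromosome 11 the pair at 3072841 to 3072989 (no-probe, 111) and 3072812 to 3072996 (RNase, 161) met no input peak. A second no-probe peak there, at 3678416 to 3678549, had the smallest width of its list and a score of 37.

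Recurrence was also seen without the chromosome starts. Away from them, 15 of 94 no-probe peaks (16.0%, 9.22% to 25.0%) and 15 of 107 RNase peaks (14.0%, 8.06% to 22.1%) were shared, and 4 of the 15 pairs met the input. Near the starts 12 of 22 no-probe peaks (54.5%, 32.2% to 75.6%) and 12 of 14 RNase peaks (85.7%, 57.2% to 98.2%) were shared, and 10 of the 12 pairs met the input. Most of the overlap with the input therefore lay in a small part of the genome. Pairs were found on 10 of the 19 autosomes, and chromosomes 9 and 2 held 13 and 5 of the 27.

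Overlap within nuclear pairs was close. The shared bases made up a median of 87.1% of the joint span, from 14.1% to 98.1%. The closest match was at 3002888 to 3003089 (no-probe) and 3002887 to 3003092 (RNase) on chromosome 9, where both scores were 82. The smallest overlap, 43 bp, was on the same chromosome between 3035791 to 3036011 (no-probe, score 49) and 3035969 to 3036096 (RNase, score 24). Just outside the criterion, the no-probe peak at 3004707 to 3004911 lay 67 bp from the nearest RNase peak. In 17 of 27 nuclear pairs the RNase peak lay inside the no-probe peak, and in 3 the reverse held. The direction went with the input. In all 14 pairs that met an input peak the no-probe peak was the wider, with medians of 240 bp and 212.5 bp, whereas in 8 of the 13 pairs that met none the RNase peak was the wider. The shortest width also differs between the lists, at 134 bp and 128 bp, and this split was noticed after the values were seen. Of the 14 pairs with input, 9 lay in 40 kb at the start of chromosome 9. The chromosome 2 group gave 4 of the 5 pairs without input in which the no-probe peak was the wider. The pairs are thus not independent, and the split was not tested.

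Scores of paired peaks rose together across the 27 nuclear pairs, with Spearman's rho of 0.67. It was 0.81 over the 14 pairs with an input peak and 0.60 over the 13 without. These are descriptions across positions of 2 libraries, and 14 of the 27 pairs lie in the groups at the start of chromosome 9 and on chromosome 2, so the points are not independent.

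**Figure D4:**
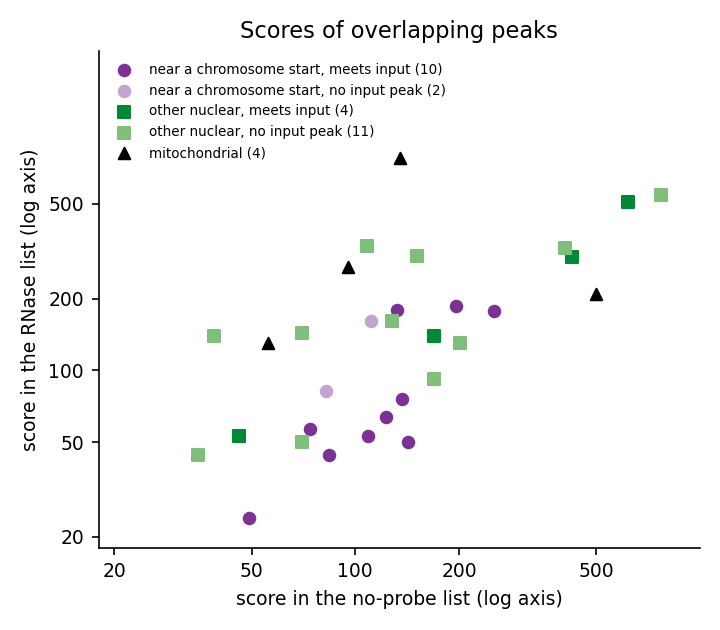
Score in the RNase list (vertical, log axis) against score in the no-probe list (horizontal, log axis) for the 31 overlapping pairs, with circles near chromosome starts, squares elsewhere in the nuclear genome and triangles on the mitochondrial genome. The chromosome 2 pair with scores of 771 and 544 is at the far right, and the mitochondrial pair with scores of 135 and 780 lies above all others.

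Smaller groups were mostly unpaired. On chromosome 14, 2 no-probe and 3 RNase peaks lay within 4.39 kb, from 62262524 to 62266916, with 1 pair and no input peak. That pair joined a no-probe peak of 271 bp (score 39) with an RNase peak of 641 bp (score 140), the widest shared RNase peak outside the chromosome 2 group and the mitochondrial genome. The other RNase peaks there had scores of 31 and 35 and the other no-probe peak had 52. The remaining 1 Mb windows with at least 3 peaks over both lists, on chromosome 9 from 23159242 to 23653578 and on chromosome 19 from 60129466 to 60772275, held 1 no-probe and 2 RNase peaks each. Neither contained a pair.

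Peaks of a single list were scattered. For unshared nuclear peaks the median distance to the nearest peak of the other list was 6.52 Mb (no-probe) and 7.01 Mb (RNase). Only 11 of 89 no-probe peaks and 4 of 94 RNase peaks had one within 100 kb. The highest unshared no-probe peaks had a score of 89, at chr12:27573923-27574095, at chr13:10134870-10135026 and at chr5:81423417-81423557. They were followed by chr2:26913264-26913408 with 82 and by chr9:3023428-3023640 with 78. The peaks with 89 stood above 80% of the no-probe list. By order within each list, 18 of the 20 highest nuclear no-probe peaks were shared, and 15 of the 20 highest nuclear RNase peaks.

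The highest unshared nuclear RNase peak was at chr11:25000073-25000281, with a score of 183, above 89.1% of the RNase list. Next came chr14:104736108-104736307 and chr2:125973546-125973752, both with 162. The peak at chr5:131995560-131995731 had 127. A score of 123 was given to the peaks at chr17:26645354-26645535 and at chr9:70653919-70654118. These 6 peaks were 172 to 209 bp wide and none met an input peak, which was rare in their class. Of all 94 unshared nuclear RNase peaks, 2 met one. Each list thus had some nuclear positions of its own among its higher scores. With no second library, whether they recur was not tested.

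On the mitochondrial genome the RNase list had more peaks and covered more bases than the no-probe list. The RNase list had 16 mitochondrial peaks, 11.7% of its peaks (6.82% to 18.3%), and the no-probe list 4, or 3.33% (0.916% to 8.31%). The RNase peaks covered 7580 bp, which is 46.5% of the 16295 positions up to the last one called, and the no-probe peaks 1040 bp, or 6.38%. Coverage was thus 7.29 times as large in the RNase list. Mitochondrial peaks made up 26.3% of all bases covered by the RNase list and 4.66% of those covered by the no-probe list. Neighbouring peaks on 1 small genome are not independent, so the intervals are too narrow. With 1 library each, the RNase treatment and any other difference between the libraries cannot be told apart.

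All 4 no-probe peaks lay wholly inside an RNase peak, on a genome of which RNase peaks covered 46.5% of the called span. The no-probe peak at 477 to 811 had a score of 500 and lay in the RNase peak at 390 to 966, which had 209. The no-probe peak at 12125 to 12286 (score 56) lay in the RNase peak at 11722 to 12523 (131). Near the end of the reference, the no-probe peaks at 15350 to 15675 (95) and 15978 to 16194 (135) lay in the RNase peaks at 15315 to 15686 (273) and 15955 to 16295 (780). The last was the highest-scoring of all RNase peaks, and the first no-probe peak was the third highest of its list. Thus the top mitochondrial position differed, being near the beginning of the reference in the no-probe list and at its end in the RNase list. These positions flank the point where numbering of the circle begins.

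The 12 RNase mitochondrial peaks without a partner were 140 to 1427 bp wide and had scores from 36 to 430. The widest peak of either list, at 2267 to 3693, had a score of 310. Its neighbour at 3795 to 4598 had 430, the second highest mitochondrial score in the RNase list, and the peak at 14425 to 15043 had 337, the third. RNase peaks covered 91.2% of positions 2001 to 4000 and 100% of positions 16001 to 16295, and none lay between 5943 and 10987, a gap of 5045 bp. Between 12001 and 14000 it was 75.0% for RNase peaks and 8.10% for no-probe peaks. The longest no-probe gap ran from 812 to 12124. None of the 20 mitochondrial peaks had the smallest width of its list, unlike the nuclear peaks. No mm9 annotation was used here, so the peaks are not assigned to genes.

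**Figure D5:**
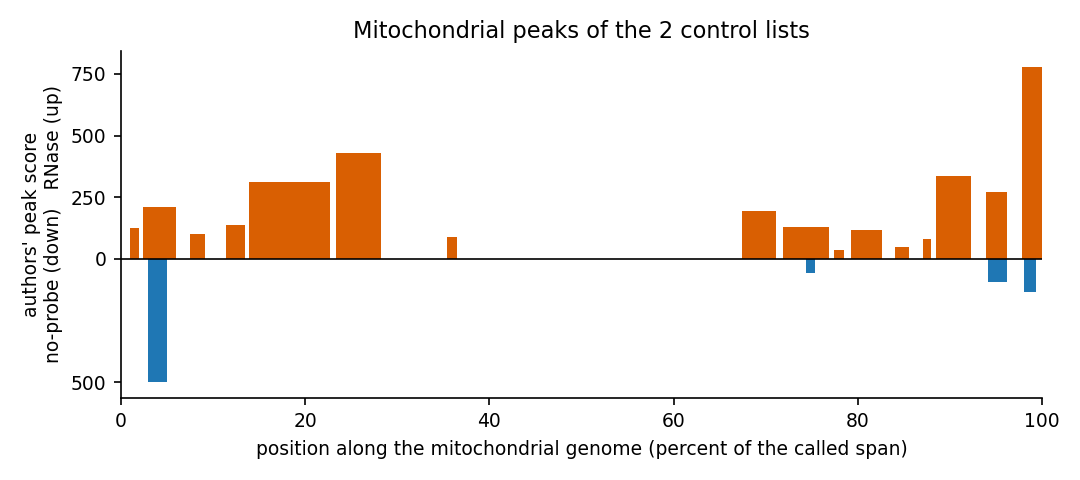
Authors' score of each mitochondrial peak (vertical), drawn upwards for the RNase list (orange) and downwards for the no-probe list (blue), along the genome as a percentage of the span up to the last called position (horizontal). The 16 RNase peaks lie towards both ends, with gaps between them, and leave the middle free. Each of the 4 no-probe peaks lies under an RNase peak.

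Seen from the input, 14 of its 144 peaks (9.72%, 5.42% to 15.8%) were met by both controls, 8 by the no-probe list alone, 3 by the RNase list alone and 119 by neither. The 14 had a median input score of 606.5 and the 119 a median of 314. Away from chromosome starts, 92 of 99 input peaks were met by neither control. Of the peaks captured with Bloodlinc probes, none in the even-probe or odd-probe list met a control peak. Taking 3 peaks as the limit that a count of 0 allows, which is a rule of thumb and not an exact interval, the share is up to 2.50% of no-probe peaks and 2.19% of RNase peaks, for counting error only. The capture lists and the input hold a part of their numbered peaks, so a position missing from them is not shown to lack signal. How that part was selected is unknown, and the limit above does not allow for it. The even-probe list covers 7902196 bp and the odd-probe list 9088544 bp, and neither holds a mitochondrial peak. The overlap expected from this coverage was not computed, so the count of 0 is not read as a result about the control peaks. The 3 control peaks that met the pulldown list (2 no-probe, 1 RNase) were all unshared and without input. That class held 67.5% of all no-probe peaks and 75.9% of all RNase peaks, so it does not set the 3 peaks apart. They were chr11:102235119-102235299 (no-probe, score 52), chr11:102234108-102234235 (RNase, score 50) and chr19:47392394-47392527 (no-probe, score 37). The chromosome 11 peaks lay 883 bp apart.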

How the data were processed

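Peak lists of 3 libraries (no-probe control, RNase control, input) were compared, with 1 library per condition, and 3 capture lists were used for position only. Each list is a BED file without a header in which the only measurement is the authors' deposited score. Bowtie2, bedtools and the mouse build mm9 are named in the submitters' processing notes. No source used here states versions, the peak caller, its thresholds or the scale of the score. Positions are printed from 1. Peaks on chromosomes X and Y were left out of the main comparison.

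Overlap of at least 1 bp, widths, covered bases and exact 95% binomial intervals were computed with Python 3.11.15, pandas 2.3.3, numpy 2.4.6 and SciPy 1.17.1, and plots with matplotlib 3.10.9. The overlap and coverage functions were tested on simulated lists with planted pairs. No test between conditions was made. Depth per library is unknown. Named peaks were the 8 nuclear pairs with the highest lower within-list percentile, all pairs that meet the input (those on chromosome 9 summarised), the 5 highest unshared nuclear peaks of each list with ties, mitochondrial pairs and leading peaks, 1 Mb windows with at least 3 peaks, and the closest and smallest overlaps. The members and rules were chosen with earlier results of these data known. No sequence is printed, as no mm9 genome was used here.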

Additional observations from a re-analysis of the deposited data

How the results depend on the processing

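Of 58 values under alternatives, 48 stayed within the interval of the main value, over 10 results. Shares had the exact interval, and median widths an interval from the ordered widths. Mitochondrial coverage had a binomial interval over single positions, 980 to 1103 bp (no-probe) and 7455 to 7705 bp (RNase). Bases of 1 peak are not independent, so the coverage intervals are too narrow, and the count of 48 is a description only. With only peaks at or above the median score of each list, the shared part was 36.6% of no-probe and 30.6% of RNase peaks, the median widths were 162 bp and 169 bp, and RNase mitochondrial coverage was 7150 bp. When 50% of both peaks had to overlap, 6.67% of no-probe and 5.11% of RNase peaks met the input, whose own peaks are shorter (median 62 bp). Without peaks under 4 Mb, 15.4% of RNase peaks were shared, and 6.12% of no-probe and 4.07% of RNase peaks met the input. Midpoints within 1 kb, gaps of up to 100 bp, merging, chromosomes X and Y, and other start windows moved no value outside its interval. No paired analysis was possible because each condition has 1 library. Unknown depth limits every comparison of counts, widths and scores between the lists.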

Other observations

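Chromosomes X and Y held 4 no-probe and 4 RNase peaks. One pair lay on chromosome X, at 139917500 to 139917723 (no-probe, score 94) and 139917514 to 139917715 (RNase, score 69), and it met an input peak of 81 bp with a score of 868. A further no-probe peak on chromosome X, at 120778609 to 120778773 with a score of 109, met an input peak and no RNase peak. The no-probe list had 2 peaks on chromosome Y, both of 134 bp, of which 1 met the input, and the RNase list had none there. The input list had 75 peaks on chromosome X and 51 on chromosome Y, against 144 on all of chromosomes 1 to 19.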
